A study of Mus musculus with 8 samples.

Results

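Transcripts of the 5 NF-κB subunits and of 5 inhibitors of the pathway were followed in resting bone marrow derived mast cells (BMMCs) with and without depletion of Mettl3. The 10 genes were chosen by symbol after the Ensembl gene IDs of the count tables had been mapped to gene names. The rule uses no measured value, but the genes were listed with earlier results of these data known. They were 10 of 56748 gene IDs, and all 10 had enough counts to be among the 14942 genes tested. The subunits were Rela, Rel, Relb, Nfkb1 and Nfkb2. The inhibitors were the IκB genes Nfkbia, Nfkbie, Nfkbid and Nfkbiz, and Tnfaip3.

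NF-κB proteins bind DNA as dimers. In resting cells IκB proteins hold most dimers in the cytoplasm, and after a stimulus the IKK kinase complex marks these IκB proteins for destruction, which frees the dimers to enter the nucleus. Several inhibitor genes are themselves NF-κB targets, which makes the response self-limiting. In mast cells the pathway is known for its part in inducing cytokine genes after the IgE receptor has been engaged.

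BMMCs are mast cells grown from mouse bone marrow in medium with interleukin 3, here from C57BL/6 mice. Every library was made from resting cells that had not been stimulated through the IgE receptor. In the Mettl3-RNP group (n = 4) the cells had been transfected with ribonucleoproteins of Cas9 and guide RNAs against Mettl3, the catalytic subunit of the mRNA m6A methyltransferase, and the labels give their genotype as Mettl3 KO. In the Pulsed group (n = 4, labelled Mettl3 WT) the cells had received the transfection pulse with no Cas9 ribonucleoprotein, so effects of Cas9 or of cutting as such are not controlled for. The transfected cells were a mixed culture that kept cells with Mettl3, and not a clone. Both groups carry replicate numbers 1 to 4, and libraries of the same number were compared as pairs.

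The targeted transcript was examined first. Mettl3 was expressed at 12.3, 9.17, 4.88 and 9.19 CPM (counts per 1000000 counts of the TMM-scaled library size) in Mettl3-RNP libraries 1 to 4 and at 25.9, 24.5, 11.1 and 26.5 CPM in Pulsed libraries 1 to 4. It was lower in 4 of 4 pairs, with a log2 fold change of -1.30 (SE 0.109, edgeR adjusted p = 0.00543). Exons of Tox4 on the opposite strand overlap those of Mettl3 over 2308 bases. Tox4 was at 84.7 to 216 CPM, above Mettl3 in every library, and the counting is not stated to use strand. The overlap may therefore have added reads of Tox4 to the printed Mettl3 level or taken reads from it. Total counts were 32643260 to 45324826 per library. Between 21871 and 28483 genes had a count, with the highest number in Mettl3-RNP 2. The summed level of 13 mast cell markers was 53351 to 69392 CPM in Mettl3-RNP and 56649 to 75649 CPM in Pulsed libraries. Against this, 10 macrophage markers summed to at most 12.2 CPM, 10 T and B cell markers to at most 1.63 CPM and 8 neutrophil markers to at most 0.985 CPM in any library, and Cd3d, Cd8a, Ms4a1, S100a8, S100a9, Elane and Camp were at 0 in every library. Erythroid markers summed to 2.38 to 3.57 CPM in Mettl3-RNP and 3.71 to 5.16 CPM in Pulsed, with 0 of 2 tested past the threshold, and 5 basophil markers to 539 to 856 and 564 to 682 CPM. Of these 5, Mcpt8, Prss34, Itga2 and Il18rap were lower and Cd200r3 higher in 4 of 4 pairs (median log2 fold change -0.68), and Il18rap passed the threshold (adjusted p = 0.0324 in edgeR). Of 5 tested macrophage markers 4 had a negative log2 fold change (median -0.38), and Adgre1 passed the threshold (adjusted p = 0.0435 in edgeR). Of 13 mast cell markers 5 had a negative log2 fold change, and Cpa3 passed (adjusted p = 0.0328 in edgeR). Without replicate 2 or 3, Il18rap, Adgre1 and Cpa3 had adjusted p from 0.0640 to 0.159 in edgeR. The part of these cells in the results was not tested. In these bulk libraries, a change in the number of cells that carry a transcript and a change in its amount per cell cannot be told apart.

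Because NF-κB drives genes through the κB site, the promoter windows of the members were searched first. Each window ran from 250 bases before to 50 bases after the start of the gene's Ensembl canonical transcript (GRCm39, GENCODE release 39), on both strands, and other start sites were not searched. The strict κB consensus was found in 4 of the 10 windows and in 5.05% of the 12056 windows of tested protein-coding genes. The windows of Relb, a subunit, and of Nfkbia, the archetypal feedback inhibitor, are shown because they hold this consensus. Those of Nfkbid and Nfkbiz, which encode nuclear IκB proteins, are shown because they do not hold it and their transcripts varied most. The window of Nfkbiz lies inside the gene, whose 5′ end is at base 55659262 of chromosome 16. The bases around that end were not searched, so the absence of a match holds for this window only. Capitals mark matches to the consensus, and sequences are given 5′ to 3′ along the gene's strand.
Relb, chr7:19363374-19363673, minus strand: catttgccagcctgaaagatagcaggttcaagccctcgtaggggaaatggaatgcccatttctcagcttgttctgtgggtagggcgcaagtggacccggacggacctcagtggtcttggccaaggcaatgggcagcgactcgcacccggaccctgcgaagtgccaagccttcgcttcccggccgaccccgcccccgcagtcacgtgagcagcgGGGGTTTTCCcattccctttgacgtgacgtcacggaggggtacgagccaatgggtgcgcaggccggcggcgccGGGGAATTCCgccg
Nfkbia, chr12:55539383-55539682, minus strand: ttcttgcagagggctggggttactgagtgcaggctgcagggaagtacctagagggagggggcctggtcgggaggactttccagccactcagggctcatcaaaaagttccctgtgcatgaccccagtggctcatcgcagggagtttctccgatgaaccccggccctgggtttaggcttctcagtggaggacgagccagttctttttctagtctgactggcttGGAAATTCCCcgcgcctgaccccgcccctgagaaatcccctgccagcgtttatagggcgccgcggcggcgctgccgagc
Nfkbid, chr7:30120900-30121199, plus strand: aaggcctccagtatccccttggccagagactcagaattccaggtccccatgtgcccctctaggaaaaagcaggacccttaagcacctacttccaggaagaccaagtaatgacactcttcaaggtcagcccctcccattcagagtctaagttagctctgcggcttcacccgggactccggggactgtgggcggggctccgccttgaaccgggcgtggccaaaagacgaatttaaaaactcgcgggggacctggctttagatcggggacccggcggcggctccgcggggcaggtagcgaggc
Nfkbiz, chr16:55642870-55643169, minus strand: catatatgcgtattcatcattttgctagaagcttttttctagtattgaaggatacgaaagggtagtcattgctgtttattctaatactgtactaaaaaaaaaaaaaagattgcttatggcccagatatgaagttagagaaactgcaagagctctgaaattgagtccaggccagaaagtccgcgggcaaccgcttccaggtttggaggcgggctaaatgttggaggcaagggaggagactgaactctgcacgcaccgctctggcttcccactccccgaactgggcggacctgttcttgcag

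In Relb the matches were GGGGTTTTCC from base -37 and GGGGAATTCC from base 37, where 1 is the start of the transcript. In Nfkbia the match was GGAAATTCCC from base -29, which reads GGGAATTTCC on the other strand. Nfkbie held GGGGGATTCC from base -86. Tnfaip3 held GGGACACCCC from base -97 and GGAAATCCCC from base 17. Windows with 2 or more matches, as in Relb and Tnfaip3, made up 0.539% of all windows searched. No match was found in the windows of Rela, Rel, Nfkb1, Nfkb2, Nfkbid and Nfkbiz. A looser pattern of GGG and CC with any 5 bases between them, which takes in every match to the consensus, was found in 8 of the 10 windows, all but those of Nfkb2 and Nfkbiz, against 63.4% of all windows. A match is a stretch of letters and does not show that a factor binds there.

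To ask whether depletion of Mettl3 changes these transcripts, each was compared between paired libraries in a fit over all tested genes. In edgeR 0 of the 10 members reached an adjusted p of 0.05, where 3.74% of all tested genes passed (2.35% higher and 1.39% lower in Mettl3-RNP). In DESeq2 3 members passed (Relb, Nfkbiz and Tnfaip3) together with 9.70% of all genes, and in limma with voom 0 passed. At an unadjusted p under 0.05 in edgeR there were 4 members, 3 of them higher (Nfkbid, Nfkbiz and Relb) and 1 lower (Tnfaip3), and 22.5% of all tested genes, 11.8% higher and 10.7% lower. The range of each member in Mettl3-RNP overlapped that in Pulsed, while the groups did not overlap for 3.23% of tested genes. The median log2 fold change was 0.12 over the members and -0.001 over all tested genes. With 4 pairs the smallest two-sided p of an exact permutation test that flips the signs of paired differences is 0.125.

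**Figure D1:**
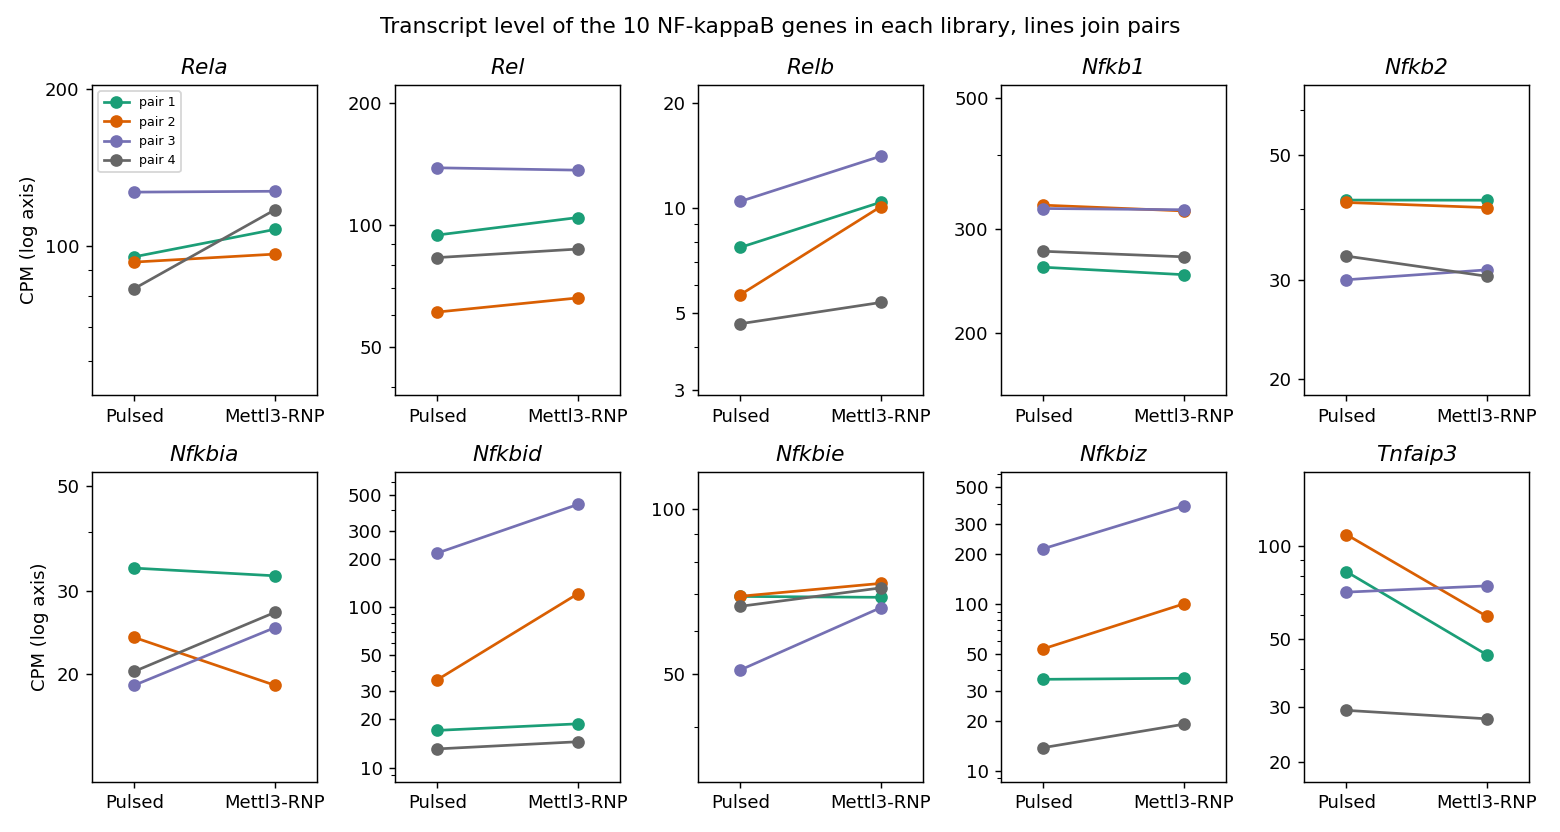
Transcript level of each of the 10 genes in CPM (log axis, with its own range for each gene) in the 4 Pulsed and 4 Mettl3-RNP libraries. Points are single libraries and lines join libraries of the same replicate number. Nfkbid and Nfkbiz spread furthest between replicate numbers, with replicate 3 highest in both groups, and Relb was higher in Mettl3-RNP in 4 of 4 pairs.

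Among the subunits, Rela and Rel carry a transactivation domain and form the dimers of the classical pathway. Rela was measured at 108, 96.4, 127 and 117 CPM in Mettl3-RNP 1 to 4 and at 95.3, 93.1, 127 and 82.8 CPM in Pulsed 1 to 4. It was higher in 4 of 4 pairs, which held for 15.7% of tested genes, but the log2 fold change was only 0.18 (SE 0.0933, 95% interval -0.03 to 0.40, edgeR adjusted p = 0.296). Rel ranged from 66.2 to 137 CPM in Mettl3-RNP and from 61.1 to 138 CPM in Pulsed, with a log2 fold change of 0.08 (95% interval -0.08 to 0.23, adjusted p = 0.551). For Rel the pairs differed more than the groups did, since 98.5% of its sum of squares lay between replicate numbers.

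Nfkb1 and Nfkb2 encode precursors that are processed into DNA-binding subunits without a transactivation domain of their own, and the unprocessed precursors act as inhibitors. Nfkb1 ranged from 251 to 323 CPM in Mettl3-RNP and from 258 to 329 CPM in Pulsed. Its log2 fold change was -0.03, with a 95% interval of -0.17 to 0.12 (edgeR adjusted p = 0.837), although Nfkb1 was lower in 4 of 4 pairs (16.0% of tested genes were). Nfkb2 ranged from 30.4 to 41.5 CPM and from 29.99 to 41.5 CPM, with a log2 fold change of -0.02 (95% interval -0.19 to 0.14, adjusted p = 0.888). For both genes the interval reached no further than 0.19 from 0 on the log2 scale. Exons of Psd and of the lncRNA gene 4833438C02Rik overlap those of Nfkb2 on the opposite strand over 3014 bases together. Psd was at most 0.618 CPM in every library, but 4833438C02Rik was at 13.4 to 28.6 CPM. The overlap may therefore have added reads of the lncRNA to the printed Nfkb2 level or taken reads from it. Shorter overlaps of 110 to 270 bases with opposite-strand genes exist for Nfkb1, Rela, Nfkbia and Tnfaip3.

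Relb (chromosome 7, 19339017 to 19363425, minus strand, GRCm39) encodes the subunit that pairs with the product of Nfkb2 in the alternative pathway. It was the least abundant member, at 10.4, 10.1, 14.1 and 5.35 CPM in Mettl3-RNP 1 to 4 and at 7.70, 5.63, 10.4 and 4.65 CPM in Pulsed 1 to 4. The log2 difference of Relb was positive in 4 of 4 pairs (0.43, 0.83, 0.43 and 0.20), but Mettl3-RNP 4 lay below 3 of the Pulsed libraries. The log2 fold change was 0.48 (SE 0.131, 95% interval 0.18 to 0.78), and the edgeR p of 0.00647 became 0.0816 after adjustment.

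Nfkbia and Nfkbie encode the classical IκB proteins that hold dimers in the cytoplasm. Nfkbia was measured at 32.3, 18.9, 25.1 and 27.0 CPM in Mettl3-RNP 1 to 4 and at 33.5, 23.9, 18.9 and 20.2 CPM in Pulsed 1 to 4. It was higher in pairs 3 and 4 and lower in pairs 1 and 2, and its log2 fold change was 0.11 (SE 0.136, 95% interval -0.21 to 0.42, edgeR adjusted p = 0.704). Nfkbie had the narrowest range of pair means of the members, at 66.1 to 73.2 CPM in Mettl3-RNP and 50.8 to 69.3 CPM in Pulsed, with a log2 fold change of 0.14 (95% interval -0.05 to 0.33, adjusted p = 0.355). Its lowest value was that of Pulsed 3.

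Nfkbid and Nfkbiz encode nuclear IκB proteins, which act on NF-κB bound to DNA and can repress or help to induce target genes. Nfkbid (chromosome 7, 30121150 to 30128171, plus strand, 12 exons) was measured at 18.7, 121, 436 and 14.5 CPM in Mettl3-RNP 1 to 4 and at 17.1, 35.3, 217 and 13.1 CPM in Pulsed 1 to 4. Replicate 3 was highest and replicate 4 lowest in both groups. The ratio of Mettl3-RNP to Pulsed was 1.10, 3.43, 2.01 and 1.11 in pairs 1 to 4, so that the difference came mainly from pairs 2 and 3. The log2 fold change was 0.80 (SE 0.257, 95% interval 0.21 to 1.40), and the edgeR p of 0.0145 became 0.118 after adjustment.

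Nfkbiz (chromosome 16, 55631738 to 55659262, minus strand, 12 exons) was measured at 35.9, 100, 389 and 19.0 CPM in Mettl3-RNP 1 to 4 and at 35.3, 53.9, 215 and 13.8 CPM in Pulsed 1 to 4. The order of the replicate numbers was the same in both groups, with replicate 3 highest, then 2, 1 and 4. The ratio was 1.01, 1.86, 1.81 and 1.38 in pairs 1 to 4. Its log2 fold change of 0.57 (SE 0.143, 95% interval 0.24 to 0.90) had the smallest p of the members, 0.00414, and missed the threshold after adjustment (edgeR adjusted p = 0.0687). Nfkbiz passed in the fit without replicate 1 (adjusted p = 0.0316) and Nfkbid in the fit without replicate 4 (adjusted p = 0.0262), while without replicate 2 the log2 fold change was 0.45 for each of them. Mettl3-RNP 2, the library of pair 2 with the high Nfkbid level, was also the library with the most genes detected, and the part of this in the result was not tested.

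Tnfaip3 (chromosome 10, 18874201 to 18891405, minus strand, 9 exons) encodes a ubiquitin-editing enzyme that shuts off signalling upstream of IKK. It was measured at 44.4, 59.2, 74.4 and 27.5 CPM in Mettl3-RNP 1 to 4 and at 82.7, 109, 71.0 and 29.3 CPM in Pulsed 1 to 4. The ratio was 0.537 and 0.542 in pairs 1 and 2 but 1.05 and 0.939 in pairs 3 and 4. The log2 fold change was -0.46 (SE 0.172, 95% interval -0.85 to -0.06), and the edgeR p of 0.0295 became 0.167 after adjustment. Tnfaip3 therefore had the opposite sign to Nfkbid and Nfkbiz, and in pair 2 all of these genes differed by more than 1.5 times, Tnfaip3 lower and the other two higher.

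**Figure D2:**
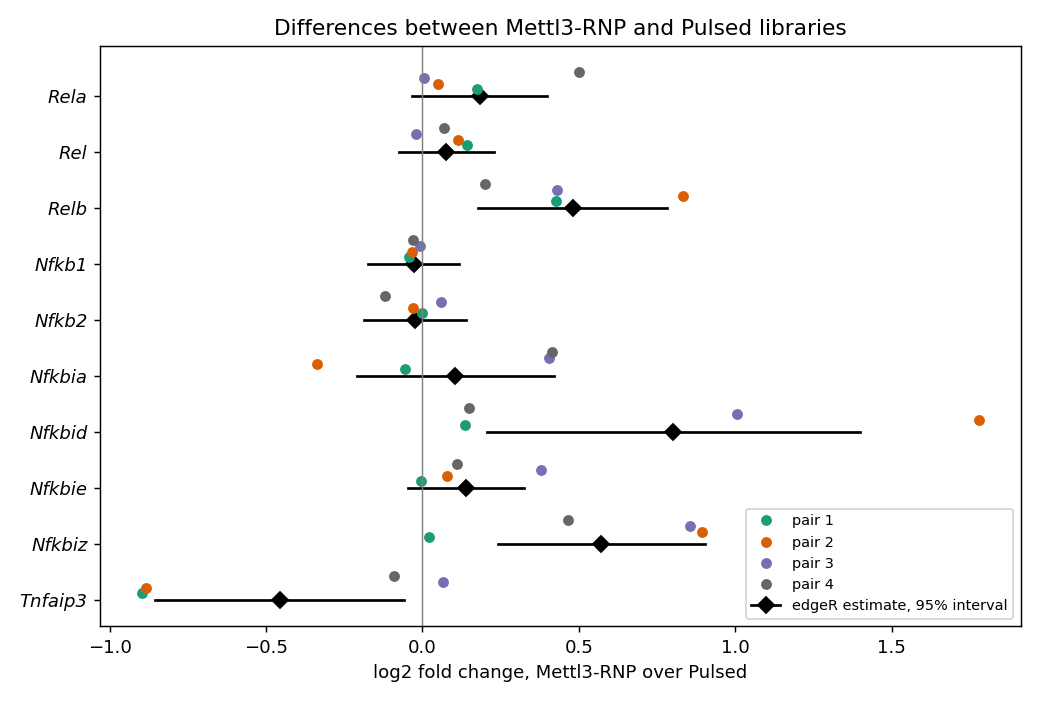
Log2 fold changes of Mettl3-RNP over Pulsed for the 10 genes (points, with 95% intervals of the edgeR fit), with the differences of single pairs. The intervals of Nfkbid, Nfkbiz and Relb lay above 0 and that of Tnfaip3 below 0 before adjustment, and no member passed an adjusted p of 0.05.

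The members differed in how far they varied between replicate numbers. The highest pair mean was 22.3 times the lowest for Nfkbid and 17.8 times for Nfkbiz, and only 0.422% and 0.576% of tested genes had a range as wide. The range was 2.83 times for Tnfaip3, 2.41 times for Relb, 2.16 times for Rel and from 1.23 to 1.54 times for the remaining members. Within the Pulsed group alone, where no Cas9 had been used, the highest library exceeded the lowest 16.6 times for Nfkbid and 15.6 times for Nfkbiz. These ranges were larger than the differences between the groups, and 92.3% of the sum of squares of Nfkbid and 95.5% of that of Nfkbiz lay between replicate numbers.

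Immediate early genes, which cells switch on within minutes of a stimulus, were followed beside them through a list of 17 genes. After each gene had been centred on its mean, their median log2 CPM was -0.41, 0.77, 3.44 and -3.19 in Mettl3-RNP 1 to 4 and -0.19, 0.23, 2.82 and -3.53 in Pulsed 1 to 4. The centred level of Nfkbiz was -0.72, 0.76, 2.71 and -1.63 in Mettl3-RNP and -0.74, -0.13, 1.86 and -2.10 in Pulsed. All of these levels were highest in replicate 3 and lowest in replicate 4. Nfkbid and Nfkbiz thus had their highest and lowest libraries where the immediate early genes did, and the part of the state of the cells at harvest in this spread was not tested. Between the groups, 0 of the 17 immediate early genes passed an adjusted p of 0.05 in edgeR (3.74% of all tested genes did) and 3 had an unadjusted p under 0.05 (22.5% of all tested genes), with a median log2 fold change of 0.18.

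**Figure D3:**
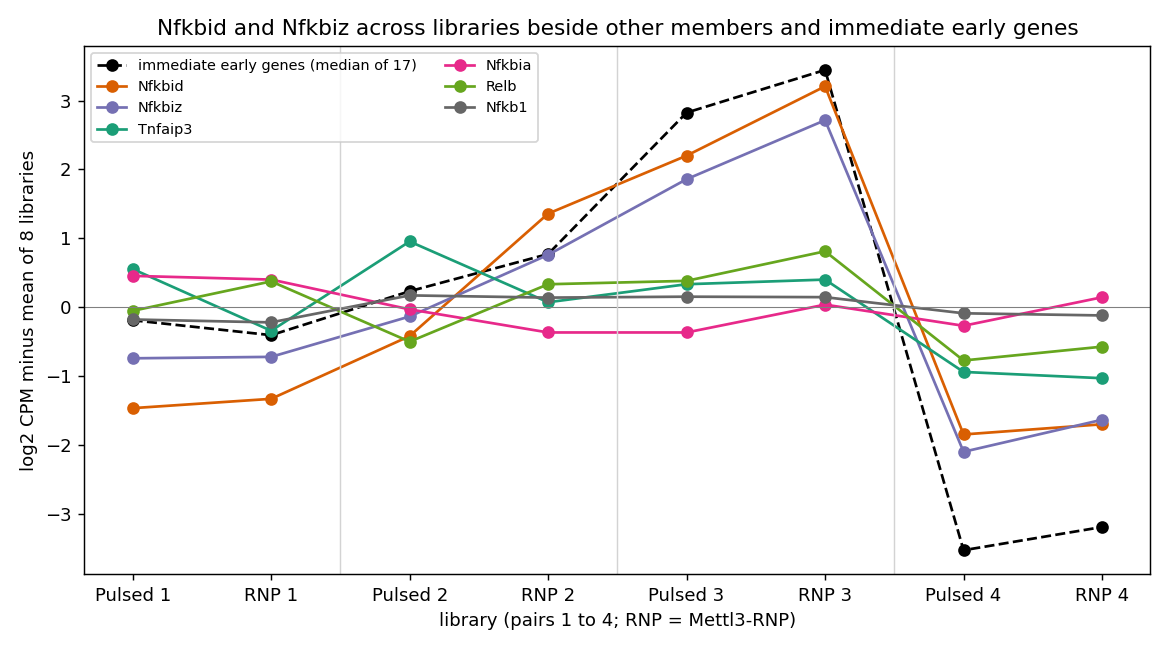
Log2 CPM minus the mean of the 8 libraries for Nfkbid, Nfkbiz, Tnfaip3, Nfkbia, Relb and Nfkb1 (coloured lines) and the median of 17 immediate early genes (dashed line), with libraries ordered by pair and lines drawn only to guide the eye. Nfkbid and Nfkbiz were highest in replicate 3 and lowest in replicate 4 in both groups, as was the median of the immediate early genes (3.44 and -3.19 in Mettl3-RNP), while Nfkb1 stayed nearly level.

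The genes nearest to Nfkbid and Nfkbiz in profile were sought among 10737 protein-coding genes that averaged 1 CPM or more. Both were singled out after their values had been seen, so the result is a description without a test. Likeness was measured as the root mean square difference of centred log2 CPM over the 8 libraries. The nearest to Nfkbid were Marcksl1 (0.434), Myh7b (0.469), Nfkbiz (0.469), Plk3 (0.503) and Ccl7 (0.526), against a median of 1.86 over all genes. The nearest to Nfkbiz were the chemokine gene Ccl7 (0.377), Gm614 (0.461), Nfkbid (0.469), Tagap (0.475) and the phosphatase gene Dusp5 (0.488), against a median of 1.58. Each of the pair was therefore the gene of rank 3 for the other, although the genes lie on chromosomes 7 and 16.

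To compare levels between genes, CPM were divided by the length of the canonical transcript in kb. In Pulsed libraries Nfkb1 was highest, at 63.1 ± 7.57 CPM per kb (SD, n = 4), followed by Rela at 36.6 ± 6.999, Nfkbid at 34.9 ± 48.6, Nfkbie at 26.0 ± 3.60 and Nfkbiz at 19.6 ± 22.7 CPM per kb. Below them were Nfkbia at 15.3 ± 4.17, Rel at 12.2 ± 4.19, Tnfaip3 at 10.6 ± 4.81, Nfkb2 at 5.39 ± 0.86 and Relb at 2.09 ± 0.75 CPM per kb. In this order only Nfkb1 from Rela and Nfkb2 from Relb were separated from their next neighbour in every library. For Nfkbid and Nfkbiz the SD exceeded the mean, and without Pulsed 3 their means were 10.8 and 8.49 CPM per kb, at ranks 5 and 8 of the 10 members. With lengths that join all annotated exons, Nfkb1 ranked 3 behind Rela and Nfkbid.

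The sum of the 5 inhibitors per kb was then set against the sum of the 5 subunits. The ratio was 0.632, 1.11, 2.57 and 0.528 in Mettl3-RNP 1 to 4 and 0.710, 0.750, 1.44 and 0.510 in Pulsed 1 to 4. As grouped here, the inhibitor sum exceeded the subunit sum in both libraries of replicate 3 and in Mettl3-RNP 2. The grouping is not one of function. Products of Nfkbid and Nfkbiz can also help to induce target genes, and the precursors from Nfkb1 and Nfkb2 act as inhibitors. Nfkbid and Nfkbiz together made up 85.4% and 78.9% of the inhibitor sum in replicate 3 (Mettl3-RNP and Pulsed). Their share was 62.7% and 34.2% in replicate 2, 24.8% and 21.9% in replicate 1, and 19.1% and 18.3% in replicate 4. The sum of the subunits ranged from 106 to 142 CPM per kb over the 8 libraries and that of the inhibitors from 54 to 365 CPM per kb.

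**Figure D4:**
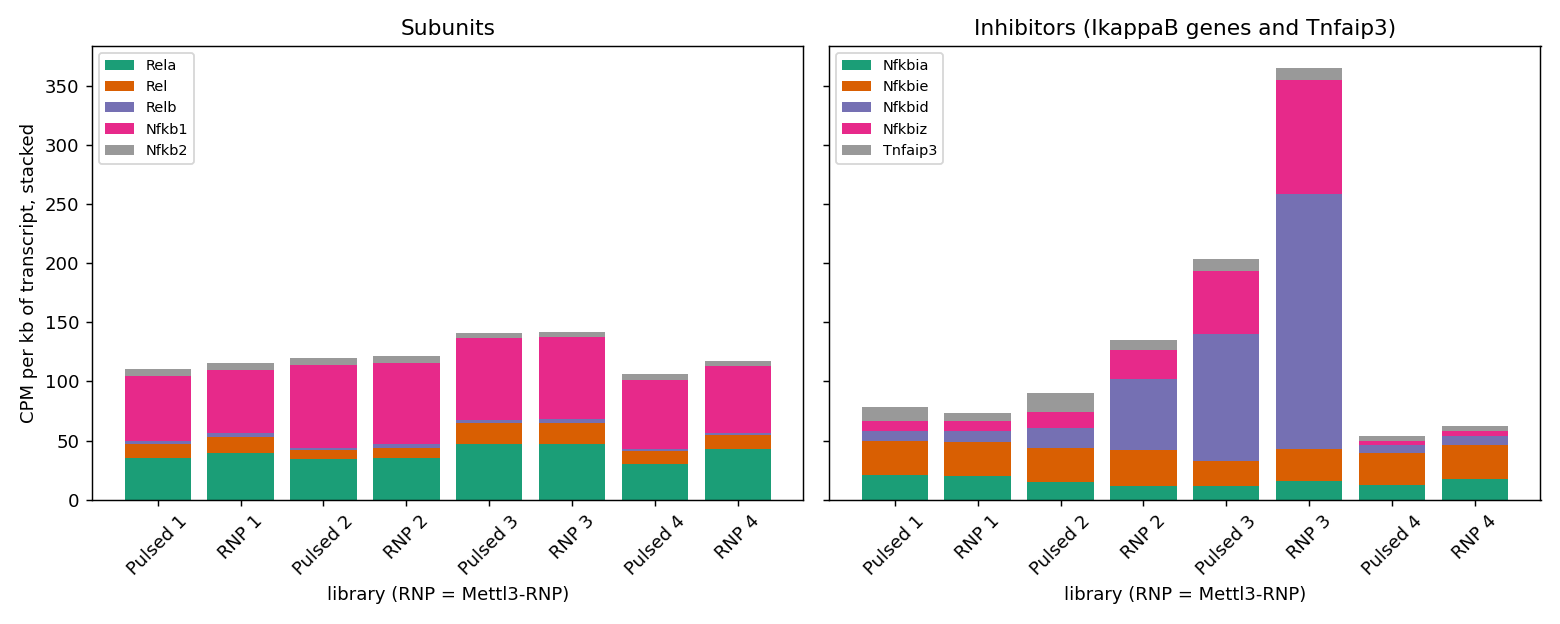
Stacked levels in CPM per kb of canonical transcript in each of the 8 libraries, with the 5 subunits on the left and the 5 inhibitors on the right on the same axis from 0 (RNP stands for Mettl3-RNP). The subunit sum stayed between 106 and 142 CPM per kb, while the inhibitor sum reached 365 in Mettl3-RNP 3, where Nfkbid and Nfkbiz made up 85.4% of it.

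The transcripts were also compared in features that bear on m6A and on mRNA decay. GGACT, the commonest form of the m6A motif, occurred at a median of 1.04 per kb over the canonical transcripts of tested protein-coding genes. Rela (2.21 per kb), Nfkbid (1.98), Nfkb2 (1.92), Nfkbia (1.90) and Tnfaip3 (1.88) lay above this median, and Relb (0.884), Nfkbie (0.814), Nfkb1 (0.638) and Rel (0.387) below it. Nfkbiz held 0 in 4045 bases. The pentamer ATTTA is the core of AU-rich elements that shorten mRNA life. It occurred 12 times in the 3′ UTR of Rel, 8 times in that of Tnfaip3 and 4 times each in those of Nfkb1 and Nfkbiz. The 3′ UTRs of Rela and Nfkbie held none, with a median of 2 per gene. These are counts and not rates, and 3′ UTR length was 5418 bases in Rel, 4278 in Tnfaip3, 852 in Nfkb1 and 1355 in Nfkbiz (median 1350). The longer form TATTTAT occurred 2 times each in the 3′ UTRs of Rel, Relb, Nfkbia and Tnfaip3. It was absent from those of the other members, and 32.2% of genes held it. Nfkbid and Nfkbiz, which had the highest fold changes of the members, stood on opposite sides of the GGACT median. Other forms of the m6A motif were not searched, so a transcript without GGACT may still hold one. A motif is no measurement of methylation, which was not analysed here.

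Other genes of the pathway were taken from lists of its further inhibitors, its upstream signalling and its target genes. Of 17 other inhibitors and brakes, 16 were tested, and 0 rose and 1 fell at an adjusted p of 0.05, beside 2.35% and 1.39% of all tested genes. The gene that fell was Tax1bp1, an adaptor through which Tnfaip3 reaches its substrates, with ratios of 0.819, 0.748, 0.713 and 0.826 in pairs 1 to 4 (log2 fold change -0.37, SE 0.0709, edgeR adjusted p = 0.0348). Its adjusted p was between 0.0664 and 0.156 when any replicate was left out, and 0.0890 when every gene with a count was tested. Bcl3, a further nuclear IκB gene, was higher in 4 of 4 pairs, at 5.64, 9.77, 1.67 and 3.84 CPM in Mettl3-RNP 1 to 4 against 4.27, 3.68, 1.46 and 1.97 CPM in Pulsed 1 to 4 (log2 fold change 0.77, adjusted p = 0.0918). Unlike Nfkbid and Nfkbiz, Bcl3 was lowest in replicate 3.

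Of 33 genes of the IKK complex and upstream signalling, all 33 were tested, and 1 rose and 0 fell, which is near the share of all tested genes (3.74% in either direction) and no result about the list. The gene that rose was Tradd, the adaptor of the TNF receptor, at 22.8, 28.1, 19.0 and 24.0 CPM in Mettl3-RNP 1 to 4 and 18.7, 16.8, 11.02 and 17.4 CPM in Pulsed 1 to 4. Every Mettl3-RNP library lay above every Pulsed library. The log2 fold change of Tradd was 0.57 (SE 0.108, edgeR adjusted p = 0.0340), and without replicates 1, 2, 3 and 4 the adjusted p was 0.0545, 0.169, 0.0684 and 0.0413. The IKK kinase genes Chuk (log2 fold change -0.08, adjusted p = 0.534) and Ikbkb (0.04, adjusted p = 0.801) and the scaffold gene Ikbkg (0.07, adjusted p = 0.681) did not pass.

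Of 38 target genes, 26 were tested, and 1 rose and 0 fell, again near the 3.74% of all tested genes, with a median log2 fold change of 0.24. The gene that rose was Plau, which encodes the urokinase plasminogen activator, at 169, 188, 106.99 and 232 CPM in Mettl3-RNP 1 to 4 and 159, 105, 69.3 and 125 CPM in Pulsed 1 to 4 (log2 fold change 0.61, SE 0.131, edgeR adjusted p = 0.0479). Plau passed without replicate 1 (adjusted p = 0.0135) but not without replicate 2, 3 or 4 (0.187, 0.0884 and 0.0784). Tnf, the gene of the cytokine that itself activates NF-κB, was at 11.4, 41.6, 593 and 6.77 CPM in Mettl3-RNP 1 to 4 and at 15.2, 8.24, 97.0 and 4.95 CPM in Pulsed 1 to 4, with a log2 fold change of 1.36 (adjusted p = 0.154). For Tnf the fit without replicate 1 gave 1.90 (edgeR adjusted p = 0.0388) and that without replicate 3 gave 0.80 (adjusted p = 0.376). As for Nfkbid, the levels of Tnf were highest in replicate 3 and the largest ratios were those of pairs 2 and 3. At an unadjusted p under 0.05 there were 12 of the 26 target genes, 10 of them higher, 10 of the 33 upstream genes and 8 of the 16 other inhibitors, beside the 22.5% of all tested genes.

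**Figure D5:**
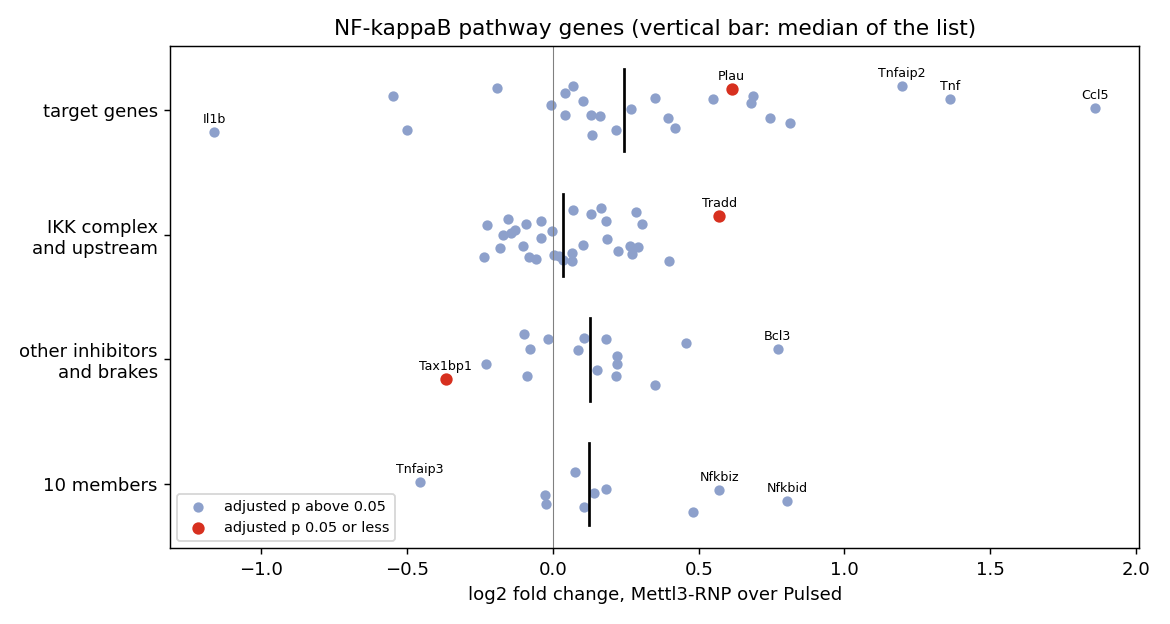
Log2 fold changes of Mettl3-RNP over Pulsed for the 10 genes and for the tested genes of 3 further pathway lists, with the median of each list as a vertical bar. Points are genes, and red points have an edgeR adjusted p of 0.05 or less (Tax1bp1, Tradd and Plau). The medians were 0.12, 0.13, 0.04 and 0.24 from the members to the target genes.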

How the data were processed

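Poly-A RNA of 8 BMMC cultures was sequenced as paired-end reads. Per the submitters' processing notes, the authors used FastQC 0.11.9, HISAT2 2.2.1 with build GRCm39, and featureCounts 2.0.1 for counting on Ensembl genes. The deposited counts are whole numbers that have not been normalized, in 1 table per library. How the counting treated strand and reads with several matches is not given in the sources used here. The study's methods name a batch correction that is not visible in these counts.

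GENCODE mouse release 39 named 56017 of 56748 IDs (98.7%), and unnamed IDs held at most 0.113% of a library's counts. Genes were filtered with filterByExpr of edgeR 4.0.16 (14942 kept), scaled by TMM and tested with glmQLFit and glmQLFTest in R 4.3.3 in a model with a replicate block. The Benjamini-Hochberg adjustment ran over all tested genes. CPM used TMM library sizes, and log2 CPM a prior count of 2. Standard errors were derived from the test statistic. Counting reads without molecular identifiers gives no count of independent molecules, and errors here come from the spread between libraries.

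The series text names 4 mice, and each replicate number was inferred to be 1 of them. Same-numbered libraries deviated together, with correlations of 0.825, 0.489, 0.879 and 0.765 over 11984 genes averaging 1 CPM or more, against at most 0.183 for different numbers.

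The members, lists and motifs were chosen with earlier results of these data known. All members and Mettl3 are named, and list genes are named where they passed the test, where a leading role in the pathway called for it, or after their values had been seen (Bcl3, Tnf, Cpa3, Adgre1, Il18rap and the genes nearest to Nfkbid and Nfkbiz). Alternatives were another scaling, other filters, no block, DESeq2 1.42.0, limma 3.58.1 with voom, another estimate of the spread, and leaving out each replicate number.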

Additional observations from a re-analysis of the deposited data

Results flagged for a closer look

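In 22 groups of 4 libraries, those of Mettl3 and of the 10 members in each condition, 3 groups held a library far from the other 3 by Dixon's test at the 95% level, where chance alone gives about 1.10. All of them were in Pulsed replicate 3. Nfkbid was at 217 CPM there, with 35.3 CPM as the next highest of the group (gap over range 0.891). Nfkbie was at 50.8 CPM there, below 66.4 CPM as the next lowest (0.845). Mettl3 was at 11.1 CPM there, below 24.5 CPM as the next lowest (0.868). The Mettl3-RNP library of the same number had the highest Nfkbid and the lowest Nfkbie and Mettl3 of its group.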

How the results depend on the processing

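Of 120 recomputed values of single members, 108 kept their direction and their side of the threshold, 9 passed it where the main value had not, and 3 changed sign. The sign changes were those of Nfkb1 and Nfkb2 with library size alone (log2 fold changes 0.0042 and 0.0095) and of Nfkb2 without replicate 4 (0.020, with a range of -0.066 to 0.020 over the fits that leave out a replicate). The count of members past an adjusted p of 0.05, which was 0, was 3 with every gene that had a count tested (Nfkbid, Nfkbiz and Tnfaip3), 1 with at least 10 counts in every library (Nfkbiz, 0.0436), 3 in DESeq2 (Relb, Nfkbiz and Tnfaip3 at 0.0479, 0.000911 and 0.0499) and 0 to 1 when a replicate was left out. The share of all tested genes called, 3.74% in the main result, was 2.95% with every gene tested, 7.67% with at least 10 counts, 9.70% in DESeq2, 4.30% in limma with voom and 4.96% with the newer estimate of the spread, and the counts of list genes below are to be read against it. Without the replicate block 0 genes passed in all, so the counts for the other inhibitors, the upstream genes and the target genes were 0, and Mettl3 kept its log2 fold change (-1.31) but not its call (adjusted p = 0.744). The other inhibitors, 1 in the main result, gave 2 with every gene tested (Bcl3 and Zc3h12a, while Tax1bp1 no longer passed), 4 in DESeq2 and 0 when any replicate was left out. The upstream genes, 1 in the main result, gave 3 in DESeq2 and 0 to 1 without a replicate. The target genes, 1 in the main result, gave 9 with every gene tested, 4 with at least 10 counts, 8 in DESeq2, 2 in limma with voom, 3 with the newer estimate of the spread in edgeR, which was added after the data had been seen, and 0 to 5 without a replicate. The immediate early genes, 0 in the main result, gave 5 with every gene tested, 1 in DESeq2 and 0 to 1 without a replicate. Without replicate 2 only 26 genes passed in all. The cause of these differences was not tested. The older spread estimate listed as an alternative is the default of the edgeR version used, so it gave no separate value. Relb had the fewest counts of the members, with 4.65 CPM in its lowest library.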

Other observations

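Levels of the target genes ranged widely in these unstimulated cells, and 12 of the 38 had too few counts to be tested. Il6 was at 102, 153, 393 and 53.7 CPM in Mettl3-RNP 1 to 4 and at 129, 126, 288 and 63.0 CPM in Pulsed 1 to 4. Ccl2 was at 349, 692, 819 and 231 CPM in Mettl3-RNP 1 to 4 and at 396, 344, 465 and 159 CPM in Pulsed 1 to 4. For Il6 and Ccl2 replicate 3 was highest and replicate 4 lowest in each group, as for Nfkbid and Nfkbiz. Ccl5 was at most 0.468 CPM and Il1b at most 4.47 CPM in any library. Cd40 and Cd83 had 0 counts in each of the 8 libraries, which allows up to 3 counts per library. These genes were picked after their values had been seen, and their values are a description.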
